A study of Mus musculus with 4 samples.

Results

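The 8 genes described here are the 6 nuclear and mitochondrial DNA topoisomerase genes of the mouse (Top1, Top1mt, Top2a, Top2b, Top3a and Top3b) and 2 genes tied to them by name and function, Topbp1 and Tdp1. They were taken by name from the 31709 genes and unnamed transcripts on the array, and each was read by 1 probe listed under that name. Doxorubicin is an anthracycline drug that poisons DNA topoisomerase II. RNA came from mouse embryonic fibroblasts (MEFs) of 2 genotypes, wild type (WT, p53+/+) and p53-/-, which lack the tumor suppressor p53, and each genotype was left untreated or treated with doxorubicin. Each of the 4 conditions was measured on 1 array, and all 4 arrays were on 1 slide, so no difference between conditions has a replicate check. The dose and time of doxorubicin for the arrays, and the cultures or embryos behind each sample, are not given in the sources used here.

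Topoisomerases cut DNA, let strands pass or turn, and seal the break again, which relieves the twist built up by transcription and replication. Type I enzymes cut a single strand, and type II enzymes cut both strands of the helix and carry another helix through the gap. Doxorubicin traps type II enzymes on the broken DNA, and the trapped enzyme must then be removed by repair. Top2a is known as the type II enzyme of dividing cells, made mainly in S and G2 phase, and Top2b as the form that nondividing cells also make. In tumor cells, the amount of topoisomerase II is known to influence the sensitivity to drugs of this class.

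The value of a probe is its deposited signal, or its level, which is the signal divided by the 75th percentile of the array. The log2 ratio of 2 levels was called at 2-fold. For 253 probes printed 10 times on each array, the spots had an SD of 0.11 for a log2 ratio and 0.16 for a difference of 2 ratios, and 0.18 and 0.26 for the 55 of them with a signal under 300 on an array. It measures the printing and reading of spots, not cultures or labeling. All 8 genes were well above background on all 4 arrays. The Trp53 probe, a check of the labels, had signals of 1228 and 3442 in untreated and doxorubicin-treated WT MEFs and 442 and 543 in p53-/- MEFs, and its place relative to the deleted sequence was not examined. All 12 fibroblast markers were well above background on every array, with summed levels of 592 to 934. The sums are carried by the brightest markers, and single markers varied more. Signals of Lum were 18970 in untreated WT, 595 in doxorubicin-treated WT, 6819 in untreated p53-/- and 1729 in doxorubicin-treated p53-/- MEFs. Those of Pdgfra were 2728, 233, 4172 and 2892, and those of Thy1 164276, 170935, 93588 and 209736, in the same order. The summed levels of the leukocyte, epithelial and endothelial markers were 14.7 to 20.0, 5.28 to 17.7 and 2.33 to 4.20 over the 4 arrays. Among others, Itgam, Csf1r, Krt8, Krt18, Kdr and Pecam1 were well above background on every array, Krt5 was so in doxorubicin-treated WT MEFs alone (signal 951), and Epcam and Cdh5 were not well above background on any array. Their part in the results was not tested. In RNA from whole cultures, fewer cells of a kind and less RNA per cell cannot be told apart.

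Top2a, which encodes topoisomerase IIα, had the widest range of the 8 genes. Its probe lies on the minus strand of mm9 at chr11:98855522-98855581 and is listed under transcript NM_011623. The 60 bases of the probe are given because the largest ratios of the 8 genes rest on them.
Top2a probe: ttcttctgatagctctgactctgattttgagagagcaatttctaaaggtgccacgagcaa
The signal of this probe was 3725 in untreated WT, 148 in doxorubicin-treated WT, 8498 in untreated p53-/- and 14463 in doxorubicin-treated p53-/- MEFs. The corresponding levels were 1.80, 0.0812, 4.52 and 5.97. Doxorubicin-treated WT MEFs stood far below the other 3 arrays, and both p53-/- arrays stood above both WT arrays. In WT MEFs, Top2a fell with doxorubicin by 4.47 on the log2 scale (22.1-fold), and 2 of 17513 measured genes had a lower ratio. Among p53-/- MEFs, the log2 ratio was 0.40, and 73.0% of 16953 genes had a lower one. With scaling to the array median, the p53-/- ratio was only 0.105. The difference between the 2 ratios, WT minus p53-/-, was −4.87, with 5 of 16513 genes lower. Between the genotypes, Top2a was 2.52-fold higher in p53-/- than in WT MEFs without doxorubicin (log2 ratio 1.33, 105 of 17286 genes higher) and 73.6-fold higher with it (log2 ratio 6.20, 1 of 17892 genes higher). The signal of 148 was above the brightest of 153 negative control spots on its array (77.5). It is nonetheless the dimmest value of the 8 genes, and the WT ratio became −3.78 with normexp background correction, which moved it further than the other alternatives did.

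Top2b, the second type II gene, encodes topoisomerase IIβ. Its probe (NM_009409, plus strand, chr14:17263157-17263216) had levels of 10.0 in untreated WT, 5.36 in doxorubicin-treated WT, 8.39 in untreated p53-/- and 4.45 in doxorubicin-treated p53-/- MEFs. Both treated arrays were below both untreated arrays. The log2 ratio with doxorubicin was −0.90 in WT and −0.92 in p53-/- MEFs, and their difference of 0.01 was smaller than the SD between repeat spots. Neither ratio passed 2-fold, but both did when arrays were scaled to their medians (−1.18 and −1.21). That scaling put the all-gene median of the doxorubicin ratio at −0.27 in WT and −0.30 in p53-/- MEFs, against 0.01 and 0.00 with the 75th percentile. The type II genes thus differed in pattern. Top2a was low on 1 array, doxorubicin-treated WT, while Top2b was lower with doxorubicin in both genotypes by nearly the same ratio.

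**Figure D1:**
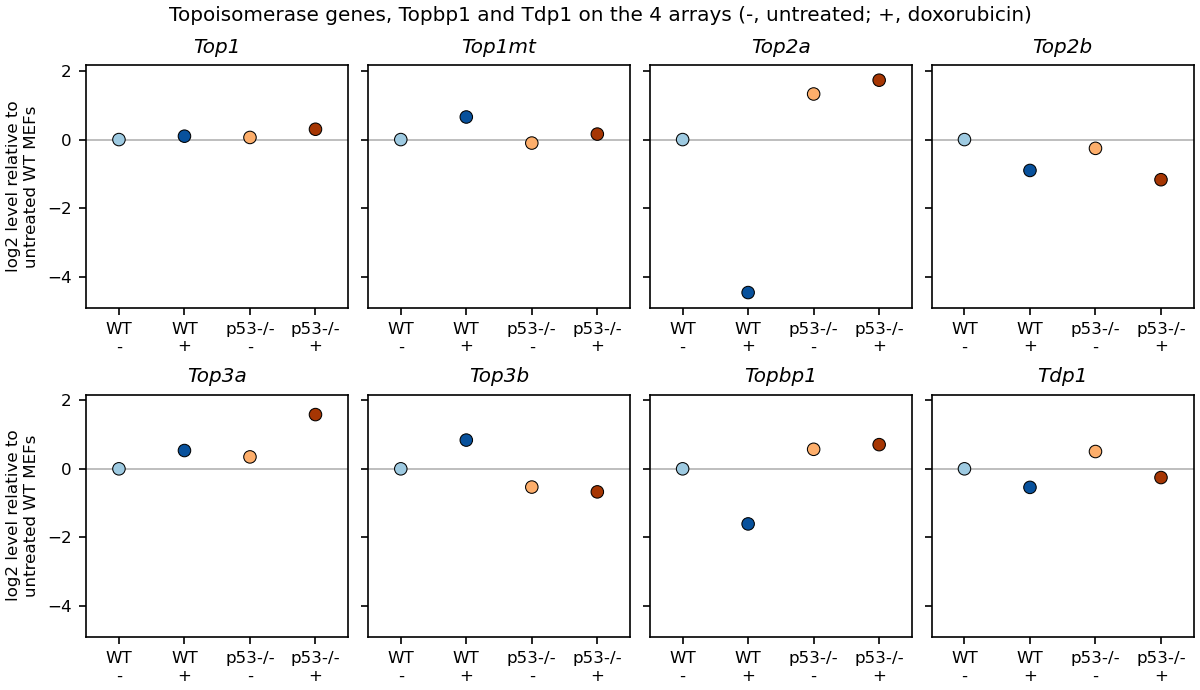
Log2 level of each of the 8 genes on the 4 arrays (x axis: genotype, and − for untreated or + for doxorubicin) relative to its level in untreated WT MEFs (y axis, log2). Each point is 1 array, and bars of 1 SD between repeat spots (0.11) are hidden by the points. The SD is 0.18 for repeat probes with a signal under 300, as Top2a has in doxorubicin-treated WT MEFs (148). Top2a spans 6.20 log2 units and Topbp1 2.31, both lowest in doxorubicin-treated WT MEFs, while Top1 spans 0.30.

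The upstream sequences of Top2a, Top2b and Topbp1 are shown because Top2a and Topbp1 were the 2 genes past 2-fold in WT MEFs, and Top2b is the paralog of Top2a with another pattern. Promoters came from a RefSeq table of build GRCm38.p6, which held 6 of the 8 genes, all but Top1mt and Top3a. Each is written 5′ to 3′ on the strand of its gene and covers the 250 bases before the start of the gene. Capitals mark matches on either strand to the CCAAT box (CCAAT), to both forms of the cell cycle genes homology region or CHR (TTTGAA and TTCGAA), and to 4 forms of an E2F element (TTTCCCGC, TTTCGCGC, TTTGCCGC and TTTGGCGC). None of the matches printed overlap.
Top2a, minus strand, chr11:99024190-99024439: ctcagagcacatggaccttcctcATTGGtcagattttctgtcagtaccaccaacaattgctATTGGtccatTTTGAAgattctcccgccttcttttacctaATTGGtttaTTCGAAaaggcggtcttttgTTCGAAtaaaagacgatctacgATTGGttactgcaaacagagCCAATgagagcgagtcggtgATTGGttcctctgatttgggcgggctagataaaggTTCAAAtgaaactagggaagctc
Top2b, plus strand, chr14:16364956-16365205: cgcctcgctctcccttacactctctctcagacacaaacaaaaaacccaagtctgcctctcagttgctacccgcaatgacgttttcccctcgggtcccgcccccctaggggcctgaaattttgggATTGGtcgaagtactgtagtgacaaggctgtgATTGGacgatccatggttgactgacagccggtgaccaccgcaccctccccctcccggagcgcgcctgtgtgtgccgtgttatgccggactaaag
Topbp1, plus strand, chr9:103305077-103305326: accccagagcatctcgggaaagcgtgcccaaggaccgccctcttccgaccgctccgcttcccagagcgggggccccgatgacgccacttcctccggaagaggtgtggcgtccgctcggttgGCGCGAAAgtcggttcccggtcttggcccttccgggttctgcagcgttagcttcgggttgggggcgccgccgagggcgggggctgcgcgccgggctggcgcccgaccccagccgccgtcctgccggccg
The search itself used 300 bases, up to 50 bases past the start, in 32851 promoters, and all matches of these 3 genes were before the start. Top2a held 6 CCAAT boxes. At least 1 was present in 37.4% of the promoters, and 6 or more in 0.0791%. It also held 2 TTTGAA matches, which 2.31% of promoters reached, and 2 TTCGAA matches, which 0.0304% reached. Top2b held 2 CCAAT boxes (11.7% of promoters held as many) and no match to the others. Topbp1 held 1 E2F form (2.26% of promoters) and no match to the others. Among the genes not printed, Top3b held 1 CCAAT box, Tdp1 held 1 TTTGAA match (17.9% of promoters), and Top1 held none of these motifs. A match is a description of letters and shows no binding.

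Among the type I genes, Top1 encodes the nuclear enzyme that relaxes DNA ahead of polymerases and is the target of camptothecin. Its probe (NM_009408, plus strand, chr2:160548391-160548450) had levels of 3.64 in untreated WT, 3.90 in doxorubicin-treated WT, 3.80 in untreated p53-/- and 4.49 in doxorubicin-treated p53-/- MEFs. The 3 lower arrays lay within 0.06 and 0.04 log2 units of their neighbors in the order, less than the SD between repeat spots, and doxorubicin-treated p53-/- MEFs lay 0.20 above them. The log2 ratio with doxorubicin was 0.10 in WT and 0.24 in p53-/- MEFs, and both became negative when arrays were scaled to their medians (−0.18 and −0.06). Top1 had the narrowest range of the 8 genes.

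Top1mt encodes the topoisomerase of mitochondrial DNA. Its probe (NM_028404, minus strand, chr15:75487632-75488160) spans 529 bases of the genome for 60 bases of sequence. The level was 1.62 in untreated WT, 2.56 in doxorubicin-treated WT, 1.51 in untreated p53-/- and 1.81 in doxorubicin-treated p53-/- MEFs. Doxorubicin-treated WT MEFs were highest, 0.50 log2 units above the next array, and the untreated arrays of the 2 genotypes differed by 0.10. The log2 ratio with doxorubicin was 0.66 in WT and 0.26 in p53-/- MEFs, where it became −0.04 with scaling to the array median, and the difference between the ratios was 0.40.

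Top3a encodes topoisomerase IIIα, which resolves joined DNA molecules together with the helicase Blm. Its probe (NM_009410, minus strand, chr11:60553572-60553631) had levels of 1.46 in untreated WT, 2.11 in doxorubicin-treated WT, 1.85 in untreated p53-/- and 4.37 in doxorubicin-treated p53-/- MEFs. Doxorubicin-treated p53-/- MEFs were above the other 3 arrays by at least 1.05 log2 units. Top3a was 2.35-fold higher with doxorubicin in p53-/- MEFs (log2 ratio 1.24), against a log2 ratio of 0.53 in WT MEFs. A second, dim probe described as Top3a but listed under another transcript gave 0.44 and 0.05, neither past 2-fold. With doxorubicin, the probe under the gene's name was 2.07-fold higher in p53-/- than in WT MEFs (log2 ratio 1.05). The second probe gave 1.20 there. Both calls of the probe under the gene's name were just under 2-fold when arrays were scaled to their medians (0.94 and 0.98). The epithelial markers also had their highest summed level (17.7) on this array, carried by Krt18 with a signal of 40299. Krt8 (2338) was also at its highest there and Cdh1 (130) was well above background, while Krt5 and Epcam were not. Their part in the value of Top3a was not tested.

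Top3b encodes topoisomerase IIIβ, which also acts on RNA and works with Tdrd3. Its probe (NM_011624, plus strand, chr16:16893009-16893068) had levels of 2.88 in untreated WT, 5.16 in doxorubicin-treated WT, 1.99 in untreated p53-/- and 1.81 in doxorubicin-treated p53-/- MEFs. Both WT arrays were above both p53-/- arrays, the reverse of the order for Top2a. The log2 ratio with doxorubicin was 0.84 in WT and −0.14 in p53-/- MEFs, a difference of 0.98. With doxorubicin, Top3b was 2.85-fold lower in p53-/- than in WT MEFs (log2 ratio −1.51), while without it the log2 ratio was −0.53. Top3a and Top3b thus stood on opposite sides of WT in doxorubicin-treated p53-/- MEFs.

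Topbp1 encodes a scaffold that binds topoisomerase IIβ, starts replication and activates the checkpoint kinase Atr. Its probe (NM_176979, plus strand, chr9:103252324-103252383) had signals of 5799 in untreated WT, 1667 in doxorubicin-treated WT, 7807 in untreated p53-/- and 11045 in doxorubicin-treated p53-/- MEFs. The levels were 2.80, 0.917, 4.15 and 4.56, and the order of the 4 arrays was the same as for Top2a. In WT MEFs, Topbp1 fell 3.05-fold with doxorubicin (log2 ratio −1.61, 710 of 17513 genes lower). The log2 ratio in p53-/- MEFs was 0.14, and −0.16 with scaling to the array median. The difference between the ratios was −1.74. With doxorubicin, Topbp1 was 4.98-fold higher in p53-/- than in WT MEFs (log2 ratio 2.31), and without it the log2 ratio was 0.57.

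Tdp1 encodes the phosphodiesterase that frees DNA ends from trapped topoisomerase I. Its probe (NM_028354, plus strand, chr12:101193217-101193276) had levels of 1.89 in untreated WT, 1.30 in doxorubicin-treated WT, 2.69 in untreated p53-/- and 1.59 in doxorubicin-treated p53-/- MEFs. In each genotype the treated array was below the untreated one for this probe. The log2 ratio with doxorubicin was −0.54 in WT and −0.76 in p53-/- MEFs, and their difference was 0.22. A second, dim probe described as Tdp1 gave 0.05 in WT MEFs, the other direction, and −0.25 in p53-/- MEFs. Neither ratio of the named probe passed 2-fold, though the ratio in p53-/- MEFs was −1.06 with scaling to the array median.

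Counted at 2-fold with doxorubicin in WT MEFs, 0 of the 8 genes were higher, against 11.0% of all measured genes, and 2 were lower (Top2a and Topbp1), against 10.4%. Counted likewise in p53-/- MEFs, 1 was higher (Top3a), against 9.24%, and 0 were lower, against 6.89%. Without doxorubicin, 1 gene was higher in p53-/- than in WT MEFs (Top2a), against 2.15% of all genes, and 0 were lower, against 2.61%. With doxorubicin, 3 were higher in p53-/- MEFs (Top2a, Top3a and Topbp1), against 11.9%, and 1 was lower (Top3b), against 10.3%. The difference of the doxorubicin ratios, WT minus p53-/-, was past 2-fold upward for 0 of the 8 genes, against 8.37%, and downward for 2 (Top2a and Topbp1), against 9.86%. Top3b, at 0.98, was just short of the upward call and passed it with scaling to the array median. These comparisons share arrays and are not independent of each other. The median log2 ratio with doxorubicin over the 8 genes was −0.22 in WT and 0.19 in p53-/- MEFs. With 8 genes, a count of 1 or 2 is near the background share in most of these comparisons, and the results above rest on the size of single ratios. Scaling to the array median moved the balance of calls among all genes, from 1930 higher and 1828 lower to 1319 and 2792 in WT MEFs, and from 1567 and 1168 to 955 and 2098 in p53-/- MEFs.

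**Figure D2:**
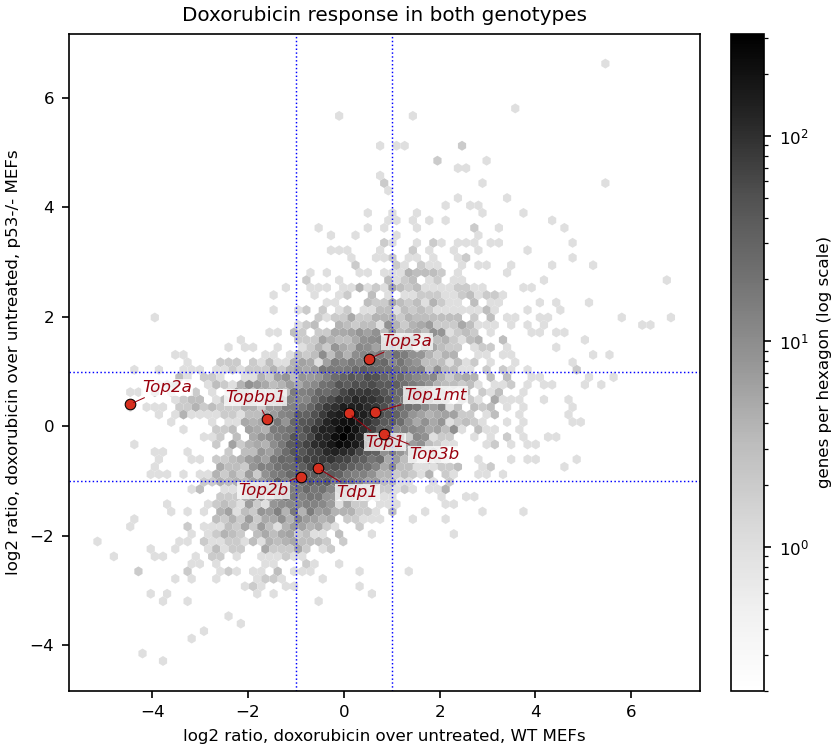
Log2 ratio of doxorubicin-treated over untreated MEFs in WT (x axis) and p53-/- (y axis) for the 16513 genes well above background on all 4 arrays (gray hexagons, number of genes on a log scale) and the 8 genes (red points). Dotted lines mark 2-fold, and Top2a at −4.47 and 0.40 lies at the left edge of the cloud, with Topbp1 at −1.61 and 0.14 between it and the center.

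The other genes of these pathways were described by list. Over all measured genes, as given above, 11.0% were higher and 10.4% lower past 2-fold with doxorubicin in WT MEFs and 9.24% and 6.89% in p53-/- MEFs, with medians of 0.01 and 0.00. Condensin complexes, with topoisomerase II, compact and untangle chromosomes. Of the 8 condensin genes listed, 7 were measured on both WT arrays. With doxorubicin, 6 fell past 2-fold, 0 rose, and the median log2 ratio was −2.06. The lowest were Ncapg2 (−3.82) and Smc2 (−2.63), and the highest past 2-fold were Ncaph (−1.95) and Smc4 (−2.02). The remaining gene, Ncapg, was not well above background in doxorubicin-treated WT MEFs and was at least 2.51-fold lower there. With that bound the median was −2.04. None of the 8 condensin genes passed 2-fold in p53-/- MEFs, with a median of 0.35 (0.06 after scaling to array medians). With doxorubicin, all 7 measured genes were higher in p53-/- MEFs past 2-fold, against 11.9% of all genes. The median of p53-/- over WT there was 3.28.

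Genes for the repair of trapped topoisomerases had smaller doxorubicin ratios in WT MEFs. All 14 were measured, and the WT median was −0.05. In WT MEFs, 1 was higher (Xrcc1, a repair scaffold, 1.03, with 0.77 in p53-/-). There, 1 was lower (Parp1, which senses strand breaks, −1.57, with −0.33 in p53-/-). In p53-/- MEFs, 1 was higher (Sprtn, a protease for DNA-bound proteins, 1.02, with 0.96 in WT), 0 were lower, and the median was 0.37 (0.07 after scaling to array medians). With doxorubicin, 3 of the 14 were past 2-fold higher in p53-/- than in WT MEFs, against 11.9% of all genes. There, 0 were lower, against 10.3%, and the median was 0.27. Tdp1 itself is not in this list.

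Of the 5 partners of topoisomerase III, 4 were measured on both WT arrays and 3 were lower past 2-fold, with a median of −1.07. These were the helicase Blm (−1.71), Tdrd3 (−1.08), which recruits Top3b, and Fmr1 (−1.07), an RNA-binding protein found with Top3b. In p53-/- MEFs, 1 of 5 was lower (Tdrd3, −1.39) and 0 were higher. The median there was 0.29, but −0.01 with scaling to the array median and −0.02 for genes above the brightest negative control. Blm, the partner of Top3a, had a log2 ratio of 0.29 in p53-/- MEFs, beside −1.39 for Tdrd3, the partner of Top3b.

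Of 13 genes that act with Topbp1, or beside it, in replication and checkpoint signaling, 10 were measured in WT MEFs. There, 4 were lower past 2-fold and 0 were higher, with a median of −0.61. The lowest were Ticrr (−3.03), which loads replication factors with Topbp1, and Etaa1 (−1.77), another activator of Atr, followed by Cdc45 (−1.46) and Mdc1 (−1.40). The signal of Cdc45 in doxorubicin-treated WT MEFs was just below the brightest negative control of that array (77.5). Clspn and Brip1 fell below background in doxorubicin-treated WT MEFs, at least 3.94-fold and 2.56-fold lower, and with these bounds the median was −1.03. In p53-/- MEFs, 1 of 12 was higher (Brip1, 1.46), 0 were lower, and the median was 0.32 (0.03 after scaling to array medians).

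Genes of the cell cycle phases in which Top2a is made were listed too. Of 16 G2/M genes, 13 were measured in WT MEFs and all 13 were lower past 2-fold, from Mki67 (−3.97) and Ccnb2 (−3.45) to Cenpe (−1.45) and Cdc20 (−1.19), with a median of −3.04. Kif11, a mitotic motor, fell below background and was at least 15.4-fold lower, and with that bound the median was −3.08. For p53-/- MEFs, 0 of 15 passed 2-fold, and the median was 0.38 (0.08 after scaling to array medians). Without doxorubicin, 10 of 14 were past 2-fold higher in p53-/- MEFs, against 2.15% of all genes, and 0 were lower, against 2.61%. The median of p53-/- over WT there was 1.16, beside 1.33 for Top2a.

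Of 13 S phase genes, 12 were measured in WT MEFs, 8 were lower past 2-fold, 0 were higher, and the median was −2.20. Mcm5 (−3.49) and Mcm3 (−3.45), subunits of the replicative helicase, were lowest. Cdc6, a loader of that helicase, fell below background and was at least 7.69-fold lower, and with that bound the median was −2.33. In p53-/- MEFs, 3 of 13 were higher and 1 was lower, with a median of 0.60 (0.30 after scaling to array medians). Rrm2, a subunit of the enzyme that makes deoxynucleotides, was among the higher genes, with a log2 ratio of 1.05 in p53-/- and −0.36 in WT MEFs.

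Beside Top1mt, 9 genes of mitochondrial DNA maintenance were listed, and 8 were measured in WT MEFs. Of these, 2 were higher past 2-fold, the helicase Twnk (1.02) and the RNA polymerase Polrmt (1.02), against 11.0% of all genes, and 0 were lower, against 10.4%. Both calls were just past the threshold, and the log2 ratios in p53-/- MEFs were 0.75 for Twnk and −0.27 for Polrmt. The WT median was 0.08, but −0.20 after scaling to array medians. For p53-/- MEFs, 2 of 9 were higher, Polg2 (1.04, with 0.33 in WT) and the nuclease Mgme1 (1.37), 0 were lower, and the median was 0.42. Mgme1 was below background in doxorubicin-treated WT MEFs, at least 1.68-fold lower. Of 2 genes of the meiotic topoisomerase VI-like complex, Spo11 was on the array. It was well above background in untreated WT MEFs alone, with a signal of 222, and at least 4.39-fold lower with doxorubicin.

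**Figure D3:**
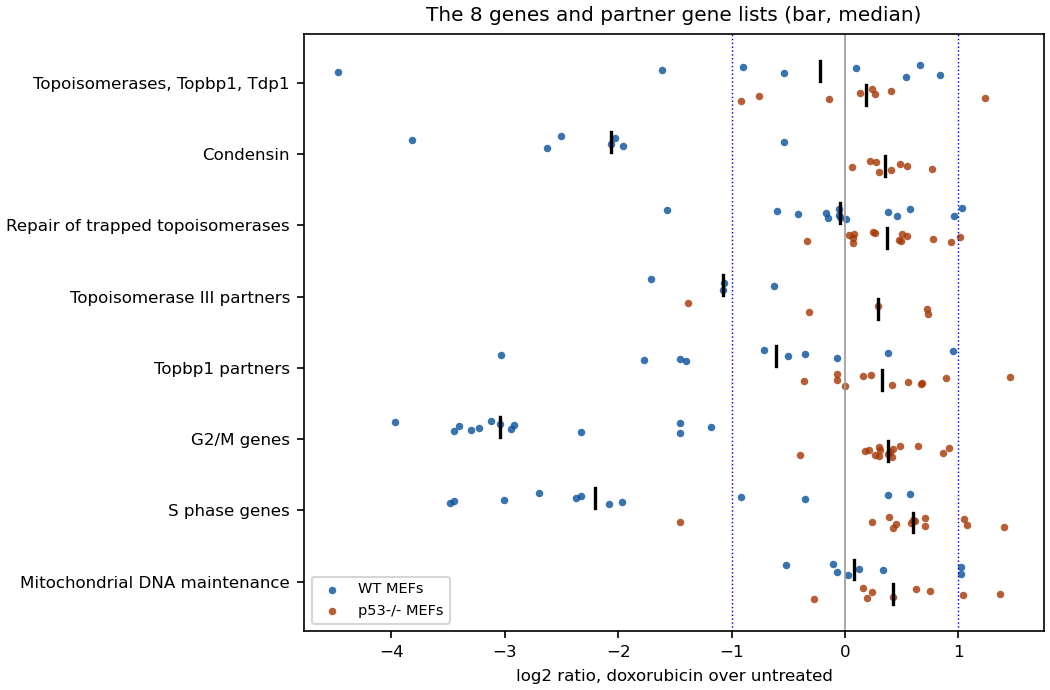
Log2 ratio of doxorubicin-treated over untreated MEFs (x axis) for the 8 genes and 7 lists (y axis), with 1 point per measured gene, WT in blue and p53-/- in orange. Black bars are medians and dotted lines mark 2-fold. The G2/M, S phase and condensin lists have WT medians of −3.04, −2.20 and −2.06, and their p53-/- medians are 0.38, 0.60 and 0.35. With scaling to the array median (not shown), these p53-/- medians are 0.08, 0.30 and 0.06.

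The genes whose pattern over the 4 arrays was most like that of Top2a or Topbp1 were found by the root mean square (RMS) difference of log2 levels, after subtraction of each gene's mean, among 16512 other genes. With 4 arrays, many genes come close. For Top2a, the nearest was Aunip, which binds the mitotic kinase Aurka, at an RMS difference of 0.129 with −4.10 for WT and 0.42 for p53-/- MEFs as its log2 ratios. It was followed by Fignl1 (0.184), Tk1, the thymidine kinase of S phase (0.216), the nuclease Exo1 (0.236) and an unnamed transcript (0.293). For Topbp1, the nearest were the nucleoside transporter Slc29a1 (0.0727), the gap junction gene Gjc1 (0.0754), Cand2 (0.0923), the ubiquitin ligase Rad18 (0.100) and Agfg2 (0.106). The log2 ratio of Slc29a1 with doxorubicin was −1.67 for WT and 0.24 for p53-/- MEFs.

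**Figure D4:**
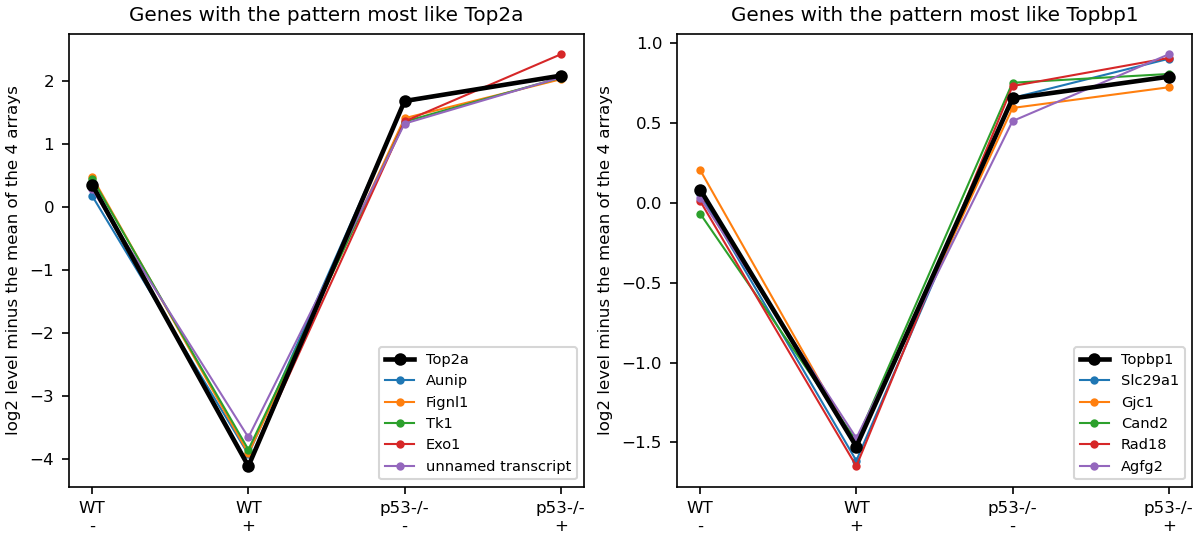
Log2 level minus the mean of the 4 arrays (y axis) on each array (x axis) for Top2a (left, black) and Topbp1 (right, black) with the 5 genes nearest to each in RMS difference (colors). All lines are lowest in doxorubicin-treated WT MEFs and highest in doxorubicin-treated p53-/- MEFs, with RMS differences of 0.129 to 0.293 for Top2a and 0.0727 to 0.106 for Topbp1. On the right, the log2 ratio between the p53-/- arrays is only 0.05 for Cand2 to 0.42 for Agfg2. For Topbp1 it is 0.14, and −0.16 with scaling to the array median.

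The 8 genes were read again under 7 other ways of processing. The 2 filters on dim probes, the mean of a gene's probes and the deposited table left every value of the 8 genes as it was, so 3 alternatives could move them, namely array medians, quantile normalization and normexp. Of the 10 ratios and differences past 2-fold, 8 stayed past 2-fold under these 3, and the exceptions were those of Top3a in p53-/- MEFs and between the treated genotypes, both with scaling to the array median. For Top2a, the WT ratio ranged from −4.74 to −3.78, the ratio between the treated genotypes from 5.51 to 6.34, and the difference of the doxorubicin ratios from −4.97 to −4.19. The sign changed for 4 of 40 values, the ratios with doxorubicin of Top1 in both genotypes and of Top1mt and Topbp1 in p53-/- MEFs, all of them small and all with scaling to the array median.

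**Figure D5:**
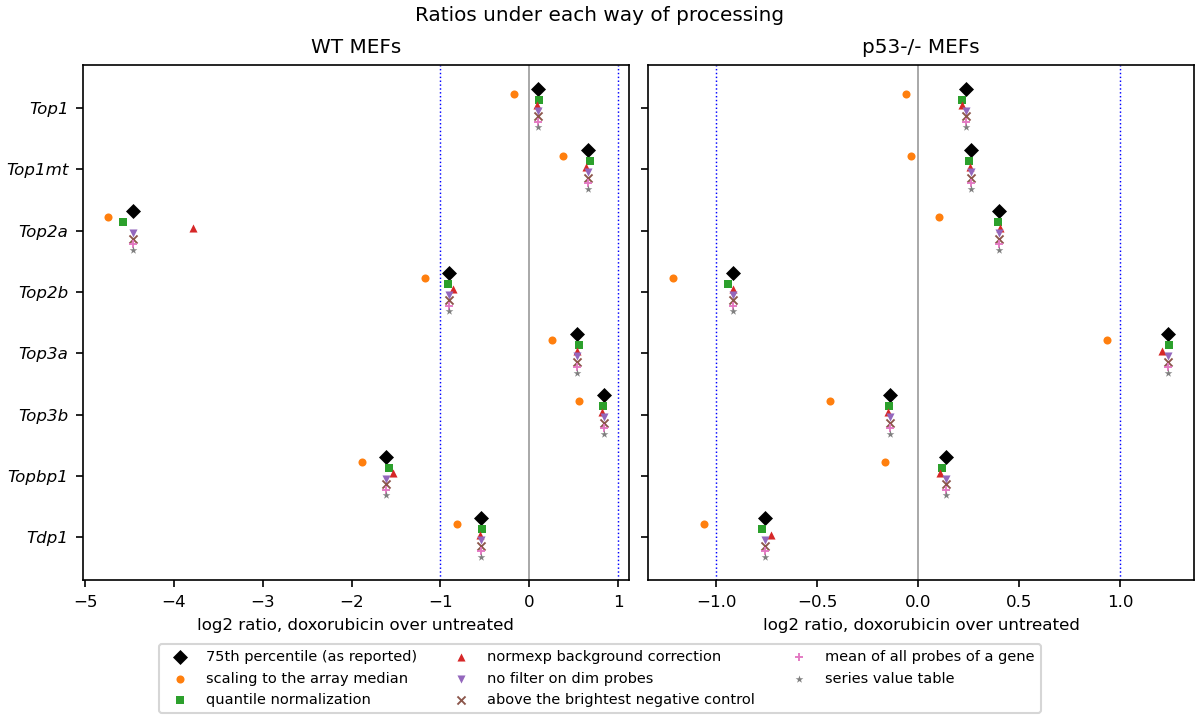
Log2 ratio of doxorubicin-treated over untreated MEFs (x axis) for the 8 genes (y axis) in WT (left) and p53-/- (right), as reported (black diamonds) and under 7 alternatives (colored marks). Scaling to the array median shifts all 8 genes to the left, and normexp moves Top2a in WT MEFs from −4.47 to −3.78.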

How the data were processed

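Per the labels, Cy3-labeled cRNA made from 200 ng of total RNA was hybridized to 4 Agilent mouse arrays, 1 per condition. Feature Extraction 10.7.3.1 was used by the authors to read them. Its deposited processed intensity is background-subtracted and detrended within an array, and was not normalized between arrays. The deposited flags mark spots well above background, saturated (0 spots) or outliers (145 to 168 spots per array, left out here). The deposited table of intensities equaled the scanner values at all 44397 spots. Fold changes from the Subio Platform, named in the methods, were not used. Probes carry mm9 positions in the files.

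Log2 intensities were averaged over the spots of each of 39429 probes, and the 75th percentile of each array (signals of 2074 without and 1819 with doxorubicin for WT, 1881 and 2421 for p53-/- MEFs) was subtracted. A gene was its brightest probe by the mean of the 4 arrays, and counted as measured if that probe passed the background flag on all arrays compared. Where a gene was below background on the dimmer array, its fold is a bound against the higher of its own signal and the lowest signal called well above background there. Calls were made at 2-fold, and no p-value was calculated, since the number of arrays limits the precision. A RefSeq table (GRCm38.p6) named 26047 probes by accession, 3195 by symbol and 930 by synonym, and 9257 kept the file's name. The 8 genes and all lists were chosen with earlier results of these data known. Named genes were the 8 genes, Trp53, up to 2 of the highest and 2 of the lowest WT ratios per list among genes past 2-fold in either genotype, and the 5 genes most like Top2a and Topbp1. Genes below background with doxorubicin were named after their values were seen. Some genes that this rule or the marker lists hold are not reported here by name, though they remain in counts, sums and medians.

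Alternatives were the array median, quantile normalization, normexp (limma 3.58.1, R 4.3.3, offset 50), no filter on dim probes, signals above the brightest negative control, all probes of a gene averaged, the deposited table, and thresholds of 1.5-fold and 3-fold. On simulated arrays, 200 of 200 probes changed by 2 on the log2 scale, well past the 2-fold threshold, were recovered among 39429, with 0 unchanged probes called. This checks the code and not the power to find smaller changes. Other software was numpy 2.4.6, pandas 2.3.3 and matplotlib 3.10.9 in Python 3.11.15.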

Additional observations from a re-analysis of the deposited data

How the results depend on the processing

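No paired analysis was possible because each condition had 1 array, and no slide block because all arrays shared 1 slide. Each of the 8 genes had 1 probe under its name, so taking each probe on its own changed nothing. Scaling to the array median gave 0 of the 8 genes higher in doxorubicin-treated p53-/- MEFs (1 as reported), 2 lower (0, Top2b and Tdp1) and 1 with a higher difference of ratios (0, Top3b). At 1.5-fold, 2 were higher in WT (0), 2 lower in p53-/- MEFs (0) and 1 had a higher difference (0). At 3-fold, 0 were higher with doxorubicin in p53-/- MEFs (1), 0 higher between the untreated genotypes (1) and 0 lower between the treated genotypes (1). Over all genes, the array median gave 2792 lower in WT (1828 as reported), and 955 higher (1567) and 2098 lower (1168) in p53-/- MEFs. Requiring signals above the brightest negative control gave 875 higher in p53-/- MEFs (1567) and 288 lower between the untreated genotypes (452), and normexp gave 219 higher there (372). Without a filter on dim probes, counts rose by over 1.5 times in all 10 comparisons, to 4900 higher and 2868 lower in WT (1930 and 1828). Thresholds of 1.5-fold and 3-fold moved all of them past 1.5 times. The cause was not tested. The signal of Top2a in doxorubicin-treated WT MEFs (148) was low, and its WT ratio was −3.78 with normexp, against −4.47 as reported.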

Other observations

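The array holds 3 further probes that are listed under Ensembl transcripts and described as Top3a, Top3b or Tdp1. They were found after the values were seen. The second Top3b probe, at chr16:16885499-16885558 of mm9, had signals of 3229 in untreated WT, 4344 in doxorubicin-treated WT, 2550 in untreated p53-/- and 2192 in doxorubicin-treated p53-/- MEFs. Its log2 ratio with doxorubicin was 0.62 in WT and −0.58 in p53-/- MEFs, beside 0.84 and −0.14 for the probe under the gene's name, and p53-/- over WT with doxorubicin was −1.40, beside −1.51.

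The second Top3a probe, at chr11:60555736-60555795, was dim, with signals of 154, 139, 242 and 424 in the same order, and the third of these is below the brightest negative control of its array (250.1). Its log2 ratio was 0.05 in WT and 0.44 in p53-/- MEFs, beside 0.53 and 1.24, and p53-/- over WT with doxorubicin was 1.20, beside 1.05. The second Tdp1 probe, at chr12:101173351-101173410, had signals of at most 137, and its log2 ratio was 0.05 in WT MEFs and −0.25 in p53-/- MEFs, beside −0.54 and −0.76.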
